A study of Mus musculus with 4 samples.

Results

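Interferon signalling was read at 9 genes that code for its receptor chains, kinases and transcription factors in mouse colorectal cancer cells with Aurora-A knockdown. The genes were Ifnar1, Ifnar2, Ifngr1, Ifngr2, Jak1, Jak2, Stat2, Irf7 and Irf9. They were picked by symbol for their role in the pathway, with earlier results of these data known. Each symbol had 1 row among the 51905 genes of the files, and all 9 were among the 11928 genes that averaged 10 counts or more in both CT26 and MC38 and were kept for the tests. The cells were CT26 and MC38, transplantable mouse lines used as models of colorectal cancer. Each line was infected with a lentivirus for a short hairpin RNA against GFP (CT26 shGFP and MC38 shGFP, the controls) or with 1 hairpin against mouse Aurora-A (CT26 shmaurka-1 and MC38 shmaurka-1). All infected cells had been selected with puromycin, and RNA was collected 48 h after seeding. The genotype of all 4 was given as WT. CT26 was grown in RPMI-1640 and MC38 in high glucose DMEM, so line and medium cannot be told apart. Each of the 4 combinations gave 1 library, so a difference within a line has no replicate error, and the only replication is between the 2 lines.

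Interferons are secreted cytokines that act on cells through paired receptor chains. Type I interferons bind IFNAR1 and IFNAR2, and interferon-gamma binds IFNGR1 and IFNGR2. The receptor tails carry Janus kinases (JAKs), which phosphorylate STAT proteins. Downstream of type I interferon, STAT2 and IRF9 act in the complex ISGF3, which binds the interferon-stimulated response element (ISRE), while STAT pairs formed after interferon-gamma bind the gamma-activated site (GAS). Stat2, Irf7 and Irf9 are themselves interferon-stimulated genes. The receptor and kinase genes are taken here as constitutive members, a division from textbook knowledge and not from these data.

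Stat2 and Irf7 rose with Aurora-A knockdown in the test common to both lines. Stat2 was higher by 34.9% in CT26 and by 30.8% in MC38, and Irf7 by 23.7% and 30.3%. Irf9 was higher by 9.25% and 11.7% but did not pass the test. None of the 6 receptor and kinase genes passed it in either direction. Ifnar2, Ifngr1, Jak1 and Jak2 had opposite signs in the 2 lines, though Jak1 was near 0 in MC38. These calls were not shared by every tool, since DESeq2 and limma called 0 of the 9.

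The libraries held 22207768 to 23752269 fragments, recovered from the deposited estimated counts. The targeted gene, Aurka, was lower in both shmaurka-1 libraries, by log2 fold changes of -2.27 (CT26) and -2.44 (MC38). The labels call CT26 a fibroblast and MC38 an epithelial cell. The epithelial markers were nearly absent from MC38, with Epcam at 0 and 1 fragments, Cdh1 at 6 and 4, Krt8 at 22 and 18 and Krt18 at 12 and 14 (shGFP and shmaurka-1). In CT26 Epcam had 0 and 1 fragments, Cdh1 1 and 2, Krt8 21 and 13 and Krt18 1516 and 1485, so Krt18 was the only 1 of the 4 well above 0. Of the 4 genes listed as fibroblast markers, Vim had 12373 to 15826 fragments in the 4 libraries. Col1a2 had 12156 and 11459 in CT26 and 1426 and 1396 in MC38. Col1a1 had 2920 and 2127 in CT26 and 2431 and 2254 in MC38, and Pdgfrb 2247 and 2240 in CT26 and 1312 and 1625 in MC38. The 5 leukocyte markers looked at summed to 16 and 16 fragments in CT26 and 47 and 36 in MC38, with Cd3e at 0 throughout and Ptprc at 3 or fewer. Most of these fragments were from Csf1r, with 9 and 13 in CT26 and 39 and 24 in MC38.

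The promoter windows of the 3 inducible members are shown because the ISRE and GAS letters can be read in them directly. Each runs from 250 bases before to 50 bases after an annotated start and is 300 bases long, taken 5′ to 3′ on the gene's strand from RefSeq on GRCm38.p6. This start is not always the end of the RefSeq gene span. The span of Irf7 extends upstream of it, to 141266499. Capitals mark a match to the ISRE core, which is GAAA, 2 bases of any kind and GAAA, searched on both strands (TTTC, 2 bases and TTTC on the other), or to the GAS core, which is TTC, 3 bases of any kind and GAA and reads the same on both strands.
Stat2 (chr10:128270248-128270547, plus strand): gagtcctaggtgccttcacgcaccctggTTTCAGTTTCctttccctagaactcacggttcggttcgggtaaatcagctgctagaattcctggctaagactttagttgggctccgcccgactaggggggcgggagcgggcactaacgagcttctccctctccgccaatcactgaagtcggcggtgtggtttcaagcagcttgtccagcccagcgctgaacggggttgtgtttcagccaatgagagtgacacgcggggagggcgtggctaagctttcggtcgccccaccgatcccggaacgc
Irf7 (chr7:141266375-141266674, minus strand): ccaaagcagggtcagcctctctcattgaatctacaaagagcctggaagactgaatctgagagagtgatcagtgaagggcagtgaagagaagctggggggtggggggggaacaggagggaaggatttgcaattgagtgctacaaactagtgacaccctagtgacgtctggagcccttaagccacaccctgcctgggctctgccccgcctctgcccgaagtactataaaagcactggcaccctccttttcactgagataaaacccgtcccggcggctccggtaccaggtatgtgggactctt
Irf9 (chr14:55603735-55604034, plus strand, the upstream of its annotated starts): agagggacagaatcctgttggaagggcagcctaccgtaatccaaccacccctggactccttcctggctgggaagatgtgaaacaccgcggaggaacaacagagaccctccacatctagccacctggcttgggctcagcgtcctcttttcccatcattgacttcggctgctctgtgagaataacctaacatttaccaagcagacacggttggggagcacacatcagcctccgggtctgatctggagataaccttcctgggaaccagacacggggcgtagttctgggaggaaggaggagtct
The Stat2 window held the ISRE core TTTCAGTTTC, which begins 222 bases before the start. The Irf7 window and both Irf9 windows held neither core. Among the 6 constitutive members, Ifnar1 held the GAS core TTCACGGAA, beginning 5 bases before the start, and Ifnar2 held TTCCTGGAA, beginning 214 bases before it. The Ifnar1 window was 91484965 to 91485264, and the RefSeq span of Ifnar1 begins at 91485032, so this site lies inside that span. The ISRE core was present in 3.443% and the GAS core in 8.298% of the 32851 promoter windows of the same length. No match overlapped another. A match is only a stretch of letters, and a window without one says nothing of factors that bind elsewhere.

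The question put to these genes was whether loss of Aurora-A moves the machinery that receives the interferon signal, and the inducible members come first. Stat2 (GRCm38 chromosome 10, 128270558 to 128292849, alone in its locus) codes for the STAT found in ISGF3. Stat2 had 249 CPM (counts scaled to library size after TMM) in CT26 shGFP against 335 with shmaurka-1. In MC38 Stat2 had 192 CPM with shGFP and 251 with shmaurka-1. The shmaurka-1 library was thus the higher of each pair, although the ranges of the 2 lines overlapped. In bulk RNA, fewer or more cells with a transcript and less or more of it per cell cannot be told apart. The log2 fold change of Stat2 was 0.43 for CT26 (95% counting interval 0.38 to 0.48) and 0.39 for MC38 (0.33 to 0.44). These are exact conditional binomial intervals on 4833 to 6582 fragments a library, and like all intervals given here they cover counting error only. The common log2 fold change was 0.41 ± 0.095 (SE), with an adjusted p of 0.00186 in edgeR's quasi-likelihood test with Benjamini-Hochberg adjustment and cell line as a block.

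Irf7 codes for the factor that amplifies type I interferon transcription. Irf7 (chromosome 7, locus 141228783 to 141266481) had 192 CPM in CT26 shGFP against 237 with shmaurka-1. In MC38 the Irf7 level was 51.8 CPM with shGFP and 67.6 with shmaurka-1. The shmaurka-1 library was again the higher of each pair, and here the 2 lines did not overlap. The log2 fold change of Irf7 was 0.31 for CT26 (95% counting interval 0.25 to 0.37) and 0.38 for MC38 (0.28 to 0.49). The common log2 fold change was 0.34 ± 0.10 (SE), with an edgeR adjusted p of 0.0336. Irf7 shares its locus in the files with Phrf1, whose RefSeq span does not overlap it. The log2 fold changes of Phrf1 were -0.01 (CT26) and -0.06 (MC38).

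Irf9 codes for the DNA-binding partner in ISGF3. Irf9 (chromosome 14, locus 55591707 to 55610030) had 166 CPM in CT26 shGFP, 181 in CT26 shmaurka-1, 82.0 in MC38 shGFP and 91.6 in MC38 shmaurka-1. Both shmaurka-1 libraries were above their controls, by less than for Stat2 and Irf7. The log2 fold change of Irf9 was 0.13 in CT26 (0.06 to 0.20) and 0.16 in MC38 (0.07 to 0.25), and the edgeR adjusted p of the common effect was 0.629. Irf9 shares its locus with Rnf31, whose span does not overlap it in RefSeq. The log2 fold changes of Rnf31 were 0.25 (CT26) and -0.14 (MC38), and how the reads of the 2 genes were parted is not given in the sources used here.

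**Figure D1:**
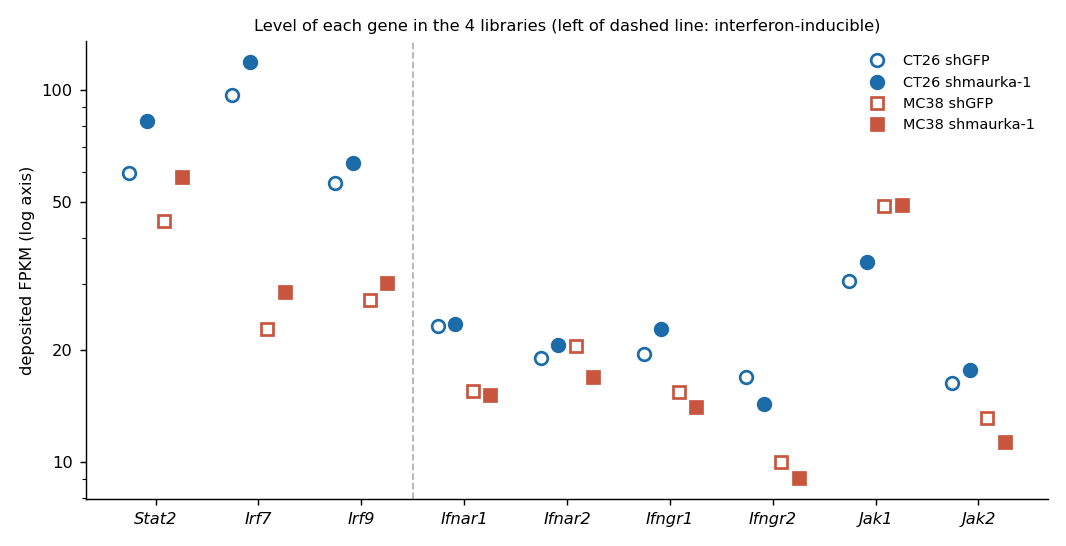
Deposited FPKM (fragments per kilobase of transcript, log axis) of each gene in the 4 libraries, with CT26 as circles, MC38 as squares, shGFP open and shmaurka-1 filled, and 1 library per point. How the authors scaled FPKM between libraries is not given in the sources used here, and gaps between the lines depend on it. Stat2, Irf7 and Irf9 lie higher with shmaurka-1 in both lines, and Irf7 stands at 96.7 FPKM in CT26 shGFP and 22.8 in MC38 shGFP.

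Of the 9 members, 2 were called higher and 0 lower in the common test, where 1.78% of the 11928 genes tested were called higher and 1.15% lower. An unadjusted p under 0.05 was reached by 2 members in edgeR, and by 12.7% of all genes tested. The test had 1 residual degree of freedom and an infinite prior, so its error was pooled over all genes of these 4 libraries and not estimated for each gene. With DESeq2 the adjusted p was 0.184 for Stat2 and 0.607 for Irf7, and with limma on FPKM it was 0.183 and 0.305. Over the 11 settings the adjusted p ran from 0.00186 to 1 for Stat2 and from 0.0308 to 1 for Irf7.

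The receptor chains of type I interferon differed from each other. Ifnar1 (chromosome 16, 91485237 to 91507441) had 93.5 CPM in CT26 shGFP against 92.2 with shmaurka-1, with 65.1 and 63.2 in the corresponding MC38 libraries. Log2 fold changes of -0.02 in CT26 (95% counting interval -0.11 to 0.07) and -0.04 in MC38 (-0.14 to 0.06) were obtained. Ifnar1 therefore differed by less than counting error in each line, although the sign in CT26 turned positive in 3 of 8 other settings. Ifnar2 (chromosome 16, locus 91372782 to 91425834) had 37.6 CPM in CT26 shGFP against 41.7 with shmaurka-1. In MC38 Ifnar2 had 34.0 CPM with shGFP and 28.9 with shmaurka-1. The knockdown library was thus the higher in CT26 and the lower in MC38. The log2 fold change of Ifnar2 was 0.15 in CT26 (0.01 to 0.29) and -0.24 in MC38 (-0.38 to -0.09). Its locus in the files also holds Il10rb, a receptor chain for interleukin-10 and interferon-lambda whose RefSeq span does not overlap it, with log2 fold changes of -0.36 (CT26) and -0.08 (MC38).

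Of the interferon-gamma receptor, neither chain passed the common test. Ifngr1 (chromosome 10, 19591948 to 19610229), the ligand-binding chain, had 34.2 CPM in CT26 shGFP against 35.4 with shmaurka-1, with 28.6 and 26.6 in MC38. The log2 fold changes were 0.05 for CT26 (-0.10 to 0.20) and -0.11 for MC38 (-0.26 to 0.05), so both intervals included 0. In CT26 the deposited FPKM of Ifngr1 gave 0.22 instead of 0.05, because FPKM per count was 1.11 times higher in the shmaurka-1 library. Ifngr2 (chromosome 16, 91547071 to 91565169), the signal-transducing chain, had 60.2 CPM in CT26 shGFP against 50.8 with shmaurka-1. In MC38 Ifngr2 had 33.5 CPM with shGFP and 30.4 with shmaurka-1. Ifngr2 was lower in both shmaurka-1 libraries, with log2 fold changes of -0.24 in CT26 (-0.36 to -0.12) and -0.14 in MC38 (-0.29 to 0.00). The common log2 fold change of -0.19 ± 0.12 (SE) had an edgeR adjusted p of 0.556.

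Neither kinase passed the common test, and the sign of both values differed between the lines. Jak1 (chromosome 4, locus 101068982 to 101265282), which serves both receptor types, had 153 CPM in CT26 shGFP against 169.9 with shmaurka-1, and 246.5 and 246.1 in the MC38 pair. The log2 fold change of Jak1 was 0.15 in CT26 (0.08 to 0.22) and -0.00 in MC38 (-0.05 to 0.05), and the sign in MC38 turned positive in 2 of 8 other settings. The Jak1 locus in the files also holds Raver2, and the RefSeq spans of the 2 genes overlap by 397 bases. Raver2 had 3 or fewer fragments in every library. Jak2 (chromosome 19, 29251827 to 29313080), the kinase on IFNGR2, had 69.2 CPM in CT26 shGFP against 75.5 with shmaurka-1. In MC38 Jak2 had 57.7 CPM with shGFP and 49.4 with shmaurka-1. As for Ifnar2, the knockdown library was higher in CT26 and lower in MC38, with log2 fold changes of 0.13 (0.02 to 0.23) and -0.22 (-0.33 to -0.11).

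**Figure D2:**
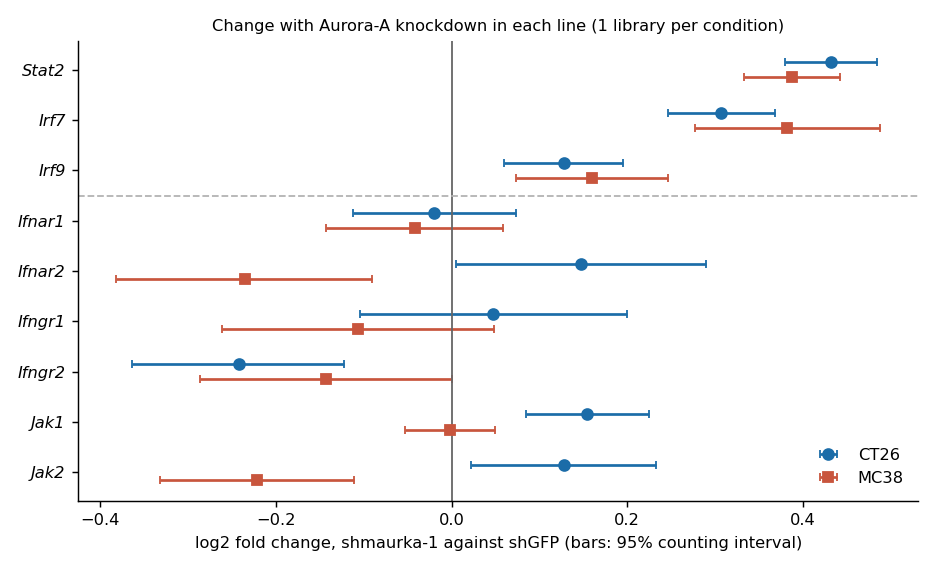
Log2 fold change of shmaurka-1 against shGFP for each gene, with CT26 as circles, MC38 as squares and bars for the 95% counting interval, which holds no replicate error. Stat2, Irf7 and Irf9, above the dashed line, lie right of 0 in both lines. Ifnar2 and Jak2 lie, with their bars, right of 0 in CT26 and left of it in MC38.

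None of the 6 constitutive members was called by edgeR, DESeq2 or limma, and 0 of the 6 had an unadjusted p under 0.05 in edgeR. In CT26 the counting interval lay above 0 for 3 of them (Ifnar2, Jak1 and Jak2) and below 0 for 1 (Ifngr2), where 22.1% of all genes tested lay above and 21.1% below. In MC38 it lay above 0 for 0 and below 0 for 2 (Ifnar2 and Jak2), with 22.8% and 22.3% of all genes. For Stat2, Irf7 and Irf9 it lay above 0 in each line. As medians, the 3 inducible members had log2 fold changes of 0.31 (CT26) and 0.38 (MC38), the 6 constitutive members 0.09 and -0.12, and all genes tested -0.01 and -0.00. No member passed the fold limits of the study, 1.5 and 0.6, in either line, which 5.77% of the genes tested passed in CT26 and 3.5% in MC38.

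The change in MC38 minus that in CT26 was -0.38 for Ifnar2 (95% interval from counting error -0.58 to -0.18), -0.35 for Jak2 (-0.50 to -0.20) and -0.16 for Jak1 (-0.24 to -0.07). For the other 6 members this interval included 0, and for Stat2 it ran from -0.12 to 0.03 and for Irf7 from -0.05 to 0.20. With 1 library per condition, no replicate error stands behind these differences, so an unequal response of the lines was not tested.

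**Figure D3:**
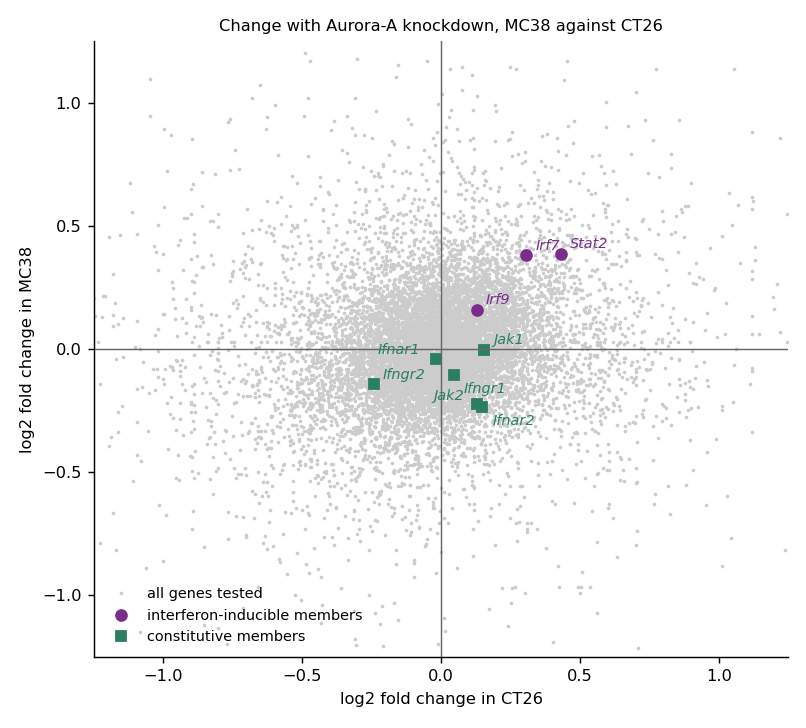
Log2 fold change of shmaurka-1 against shGFP in MC38 (y axis) and in CT26 (x axis) for the 11928 genes tested in grey, of which 133 lie outside the axes, with the inducible members as circles and the constitutive members as squares. Stat2, Irf7 and Irf9 lie in the upper right, and Ifnar2 and Jak2 in the lower right.

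Levels between genes were compared per length, as deposited FPKM within a library. In CT26 the order was Irf7 (96.7 FPKM with shGFP and 119 with shmaurka-1), Stat2 (59.8 and 82.5), Irf9 (56.2 and 63.6), Jak1 (30.5 and 34.4), Ifnar1 (23.1 and 23.4), Ifngr1 (19.4 and 22.7), Ifnar2 (19.1 and 20.6), Jak2 (16.2 and 17.6) and Ifngr2 (16.9 and 14.3). The ranges over the 2 CT26 libraries overlapped between Stat2 and Irf9, between Ifngr1 and Ifnar2 and between Jak2 and Ifngr2. Within each library Stat2 was above Irf9 and Ifngr1 above Ifnar2, while Jak2 and Ifngr2 changed places and had no clear order. In MC38 the order was Stat2 (44.3 and 58.1), Jak1 (48.6 and 48.8), Irf9 (27.2 and 30.2), Irf7 (22.8 and 28.6), Ifnar2 (20.4 and 16.9), Ifnar1 (15.5 and 15.1), Ifngr1 (15.4 and 14.0), Jak2 (13.1 and 11.3) and Ifngr2 (9.98 and 9.03). Here the ranges overlapped between Stat2 and Jak1, between Irf9 and Irf7 and between Ifnar1 and Ifngr1, and of these only Stat2 and Jak1 changed places. The transcription factors thus stood above the receptor chains in both lines, and Irf7 moved from the first to the fourth place.

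Partners that act together were not at equal levels. The FPKM ratio of Jak1 to Jak2 was 1.88 and 1.96 in CT26 (shGFP and shmaurka-1) and 3.71 and 4.34 in MC38. The ratio of Ifnar1 to Ifnar2 was 1.21 and 1.14 in CT26 and 0.756 and 0.894 in MC38. Stat2 exceeded its ISGF3 partner Irf9 in every library, with ratios of 1.06 and 1.30 in CT26 and 1.63 and 1.93 in MC38, and in each line the ratio was higher with shmaurka-1.

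Levels of the members also differed between the lines. In the line coefficient of the same edgeR fit, 8 members were called higher in CT26 and 1 in MC38, where 36.7% of the genes tested were called higher in CT26 and 36.8% in MC38. Irf7 was 3.61-fold higher in CT26 (adjusted p of 1.87e-67), Irf9 2.0-fold and Ifngr2 1.74-fold. The other 5 members higher in CT26 were so by 1.26 to 1.45-fold, and Jak1 was 1.53-fold higher in MC38. Scaling to total counts in place of TMM moved the median log2 difference of all genes by 0.32 toward MC38, and 65.87% of the calls were then higher in MC38 against 50.05%. Under that scaling only Irf7, Irf9 and Ifngr2 were called higher in CT26, and Jak1 stayed called higher in MC38. Stat2, Ifnar1, Ifnar2, Ifngr1 and Jak2 were not called under it, and their differences hold only relative to the median of all genes. DESeq2, which kept the main direction, also did not call Ifnar2 and Ifngr1. Ifnar2 was not called with limma on FPKM (adjusted p of 0.550) or by edgeR without a filter on low counts (0.0503). Without the block for treatment, edgeR did not call Stat2 (adjusted p of 0.0538).

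The interferon genes looked at were next to absent. The 10 listed were Ifnb1, Ifna1, Ifna2, Ifna4, Ifna5, Ifne, Ifnk, Ifng, Ifnl2 and Ifnl3, which are not all interferon genes. Ifnl2 and Ifnl3 code for interferon-lambda, which is not a ligand of the receptor chains read here. Of the 10, 9 had 0 fragments in all 4 libraries, including Ifng, and a count of 0 allows up to 3 fragments. Ifnb1, the interferon that many cell types can make, had 20 fragments in CT26 shGFP against 24 with shmaurka-1 (log2 ratio 0.37, 95% counting interval -0.53 to 1.32), and 0 in both MC38 libraries. A difference in Ifnb1 with knockdown was not detectable at this depth.

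The remaining signalling genes were read from lists that, like the members, were drawn up with earlier results of these data known. Of 7 other IRF genes 4 were tested, and 0 were called by edgeR, DESeq2 or limma, with 0 at an unadjusted p under 0.05. The common log2 fold change was above 0 for 2 of the 4. For Irf1 it was 0.02, with -0.09 in CT26 and 0.13 in MC38, so the rise of Stat2 and Irf7 was not shared by Irf1. In edgeR 12.7% of all genes tested had an unadjusted p under 0.05.

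Of 13 negative regulators of the pathway (the SOCS, PIAS and PTPN families, Cish and Usp18), all tested, 1 was called higher and 0 lower. Of all genes tested, 1.78% were called higher and 1.15% lower. The common log2 fold change was above 0 for 5 of the 13. This was Usp18, an interferon-stimulated protease that removes ISG15 and binds IFNAR2. Usp18 had 7761 fragments in CT26 shGFP, 9827 in CT26 shmaurka-1, 2532 in MC38 shGFP and 3422 in MC38 shmaurka-1. Each line gave a log2 fold change of 0.46, and the edgeR adjusted p was 0.000222. DESeq2 and limma called 0 of the 13.

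Among 12 target genes of ISGF3, all tested, 6 were called higher and 0 lower, where 1.78% of all genes tested were called higher. In both lines all 12 were above 0, as were 28% of all genes tested. The common log2 fold change had a median of 0.33, against -0.00 for all genes tested. The 4 with the largest common change among those called were Ifit3 (0.80), Ifit1 (0.66), Rsad2 (0.50) and Oasl2 (0.43), antiviral effectors that act on viral RNA, nucleotides and membranes. Ifit1 had 2291 and 3143 fragments in CT26 (shGFP and shmaurka-1) and 1417 and 2324 in MC38. Ifit3 had 232 and 290 in CT26 and 406 and 849 in MC38, a log2 fold change of 1.09 in MC38 and 0.44 in CT26. DESeq2 called 2 of the 12, and 0 were called with limma, without a filter on low counts or without the block for cell line.

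Of 8 target genes of interferon-gamma, 7 were tested, 5 were called higher and 0 lower, against 1.78% of all genes tested called higher. Whether interferon-gamma or any other interferon acted on these genes here was not tested. In both lines all 7 were above 0, against 28% of all genes, with a median common log2 fold change of 0.35. Those named by the same rule were Iigp1 (0.68), Gbp2 (0.56), Gbp3 (0.56) and Irgm2 (0.35), GTPases of cell-autonomous defence. Gbp3 had 1598 and 2254 fragments in CT26 and 2003 and 2789 in MC38. Iigp1 had 49 and 125 in CT26 and 322 and 388 in MC38, with a log2 fold change of 1.45 in CT26 (95% counting interval 0.98 to 1.98) and 0.30 in MC38 (0.08 to 0.52). The count was less stable than that of the ISGF3 targets, with 2 called under either other filter on low counts, 1 with DESeq2, and 0 with limma, without a filter or without the block for cell line.

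**Figure D4:**
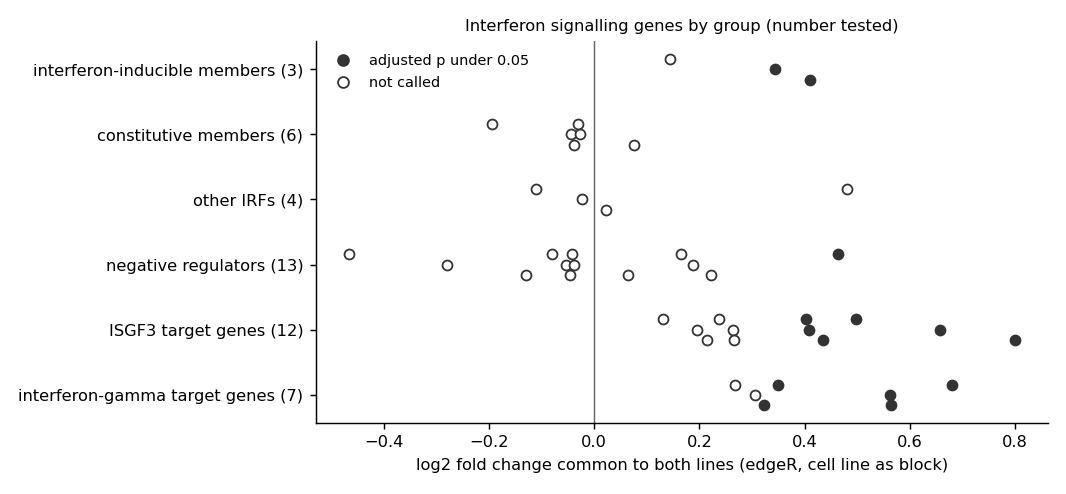
Common log2 fold change of shmaurka-1 against shGFP (x axis, edgeR with cell line as block) for the genes of each group, 1 circle per gene, filled where the adjusted p was under 0.05. The 12 ISGF3 targets and 7 interferon-gamma targets lie right of 0, as do the 3 inducible members, while 1 of the 6 constitutive members does.

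The genes whose pattern was most like that of the 3 inducible members were sought over the 4 libraries among 10026 genes that averaged 50 counts or more in both CT26 and MC38, by Euclidean distance to the median of the centred log2 CPM of Stat2, Irf7 and Irf9. The 5 nearest were Tmem87a (distance 0.0192), Adat3 (0.0221), Usp28 (0.0299), Riok1 (0.0311) and Ap2a1 (0.0344). None of these 5 was called for the knockdown in edgeR (adjusted p of 0.633 to 0.885), and in all 5 the log2 difference of CT26 over MC38 was near 1. The median profile coincided with that of Irf9, the inducible member that was not called, so the 5 genes resemble Irf9 in both its line difference and its small change with knockdown. Stat2 and Irf7 lay at distances of 0.664 and 0.873 from the profile.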

How the data were processed

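Strand-specific libraries, 1 for each of 4 conditions, came from the CT26 and MC38 lines carrying the shGFP or the shmaurka-1 hairpin. For each gene the authors deposited an FPKM value and an estimated count. The submitters' processing notes name Trimmomatic 0.36, HISAT2, Cufflinks 2.2.1 and Cuffdiff, without settings, and how strand was used in counting is not given in the sources used here. The notes name GRCm39, but 99.82% of 18099 gene loci overlapped the same gene in GRCm38.p6 RefSeq and 9.553% in GRCm39, so coordinates are GRCm38. The deposited counts are whole multiples of 1 step per library (0.885 to 1.17) for 97.1% to 97.7% of nonzero values within 0.05. Dividing by the step gave the fragments.

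Counts were rounded, scaled by TMM and tested with edgeR 4.0.16 (quasi-likelihood, R 4.3.3) with line as a block, Benjamini-Hochberg adjustment over 11928 genes and a threshold of 0.05. Genes had to average 10 counts or more in both lines. Within a line, 1 count was added and no p was computed. Fold changes on FPKM used log2(FPKM + 0.1) or a pseudocount of 1. Alternatives covered the scaling, the filter, the added count, the block, DESeq2 1.42.0 and limma 3.58.1. The common test for the knockdown was tried on simulated counts, with changes larger than those of the members. The within-line intervals and the test between the lines were not simulated. Python 3.11.15, numpy 2.4.6, pandas 2.3.3 and scipy 1.17.1 were used.

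All 9 members were named, and from each list at most the 4 called genes with the largest common change, the 5 genes most alike, and Aurka. Genes outside this rule (cell markers, locus neighbours, Ifnb1, Ifng, Irf1, Socs1, Socs3) were named as checks. The members and lists were chosen with earlier results of these data known, so their direction is not independent evidence. 1 group of signalling genes is not reported here. Promoter windows came from the RefSeq table, in which all 9 members matched.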

Additional observations from a re-analysis of the deposited data

Results flagged for a closer look

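Ifnar2, Ifngr1, Jak1 and Jak2 were set apart because their log2 fold change with Aurora-A knockdown was positive in CT26 and negative in MC38. The values were 0.15 and -0.24 for Ifnar2, 0.048 and -0.11 for Ifngr1, 0.15 and -0.0018 for Jak1, and 0.13 and -0.22 for Jak2. The difference was not tested against replicate error, as each condition had 1 library. For Ifngr1 both counting intervals included 0, and for Jak1 the value in MC38 was within counting error of 0.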

How the results depend on the processing

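The sign of the member values held in all 8 other settings except for Ifnar1 in CT26 (5 of 8) and Jak1 in MC38 (6 of 8), both near 0, while the number of calls varied more. The medians of the inducible and constitutive members kept their sign in 32 of 32 alternatives, and 142 of 144 single fold changes stayed within the counting interval, the other 2 being Ifngr1 in CT26 at 0.22 with FPKM. Against 349 genes (212 higher, 137 lower) and 2 members called for the knockdown, edgeR called 155 (90 and 65) and 1 member with filterByExpr, 110 (68 and 42) and 1 member with a minimum of 50 in place of 10, and 1 gene (0 higher, 1 lower) and 0 members with no filter. DESeq2 called 29 (17 and 12) and limma on FPKM 6 (3 and 3), each with 0 members. Without the replicate block for cell line, which is the only pairing these labels give, edgeR called 0 genes (0 higher, 0 lower) and 0 members, with 14 genes at an unadjusted p under 0.05. Total-count scaling called 1 member higher, and 50.62% of its calls were higher against 60.74%. Stat2 was called in 6 of the 10 alternatives and Irf7 in 3, where Irf7 had an adjusted p of 0.0620 with total counts, 0.110 with filterByExpr and 0.109 with the minimum of 50. For the difference between lines, total counts left 3 members called higher in CT26, as against 8. The cause of these shifts was not tested. Leaving out either line leaves no residual degrees of freedom, so the value is that of the other line, with no test. The common test rests on 2 lines that share 1 hairpin, so an effect of that hairpin other than on Aurka cannot be told apart from the knockdown, and whether a difference within a line exceeds the spread of separate cultures is unknown.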
